A study of Mus musculus with 13 samples.

Results

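GR binding in dKO liver was followed from vehicle to dexamethasone at 32416 sites, taken from 217044 peaks in the 7 peak lists of the series. The dKO dexamethasone list held 28378 GR peaks and the dKO vehicle list 23362. Peaks of the lists that shared at least 1 bp were paired, which gave 18330 shared sites. A peak with no peak of the other list within 500 bp was called condition-only, which gave 9520 dexamethasone-only and 4566 vehicle-only sites. The remaining 528 dexamethasone and 466 vehicle peaks lay within that margin and entered no class.

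Livers came from male mice killed at zeitgeber time 10, 2 h after an intraperitoneal injection at zeitgeber time 8 of saline vehicle or 1 mg/kg dexamethasone, a synthetic glucocorticoid. The dKO animals, in which NCOR1 was targeted, were labelled CRE, and control animals were labelled GFP. The age of the animals, the route by which Cre was delivered and the promoter that drove it are not given in the sources used here, so the liver cells that escaped Cre cannot be named. For GR, 3 antibodies (2 µg of each) were used together on chromatin of whole liver, and the libraries were not size selected. Each dKO list pools 2 libraries, so no value below has a spread between animals and no difference was tested over samples. In whole liver, a different level per cell and a different number of binding cells cannot be told apart.

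The glucocorticoid receptor (GR, encoded by Nr3c1) is a transcription factor that moves to the nucleus and binds DNA when it meets a glucocorticoid. In hepatocytes it is known for raising genes of gluconeogenesis, amino acid breakdown and the circadian clock and for restraining inflammation. Its best known DNA element is an imperfect inverted repeat with the core ACANNNTGT, where N is any base. NCOR1 is a scaffold of a corepressor complex with the histone deacetylase HDAC3, and it is recruited by many nuclear receptors.

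The dKO lists rested on 31144581 tags under vehicle and 31908182 under dexamethasone. NCOR1 in dKO vehicle liver, from 1 library, gave 17282 peaks with 2.07% of tags, against 39458 peaks and 8.52% in control vehicle liver. Hepatocyte genes carried shared GR sites near 19 of 22 listed members, and leukocyte genes, including Kupffer cell markers, near 4 of 15, beside 8373 of all 21900 protein-coding genes.

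Sequence under the sites is shown for promoters, since promoter windows were the only reference sequence used. The first 5 sequences lie under every raised promoter site that met 3 conditions: a protein-coding gene, a tag count of at least 20 under dexamethasone and the GR core within the 120 bases printed. They were 5 of 15 raised promoter sites that met the first 2 conditions, so their core is there by selection. The last 3 lie under the promoter sites with the highest vehicle tag counts among those lowered by 0.75 or more on the centred log2 scale described below. That label is wider than the 2-fold call used later, which Gm46382 met (-1.34) and Msantd3 (-0.91) and Acbd5 (-0.76) did not. All run 5′ to 3′ on the strand of the gene, are taken from RefSeq promoter windows on GRCm38.p6 (mm10), and stop before the transcription start. Capitals mark the core ACANNNTGT. In order they cover chr2:30266038-30266157 (plus strand), chr3:108562597-108562716 (minus), chr4:133240572-133240691 (plus), chr17:34564175-34564294 (plus), chr8:94178935-94179054 (plus), chr4:48540331-48540450 (plus), chr12:112722190-112722309 (minus) and chr2:23068952-23069071 (plus).
Phyhd1, raised: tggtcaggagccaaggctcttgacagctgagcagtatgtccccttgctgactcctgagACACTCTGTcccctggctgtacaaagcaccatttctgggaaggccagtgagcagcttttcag
Tmem167b, raised: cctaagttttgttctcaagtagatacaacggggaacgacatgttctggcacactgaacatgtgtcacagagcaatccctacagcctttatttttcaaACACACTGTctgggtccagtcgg
Map3k6, raised: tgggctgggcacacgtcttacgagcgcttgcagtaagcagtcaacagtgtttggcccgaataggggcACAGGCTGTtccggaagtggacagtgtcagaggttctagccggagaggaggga
Notch4, raised: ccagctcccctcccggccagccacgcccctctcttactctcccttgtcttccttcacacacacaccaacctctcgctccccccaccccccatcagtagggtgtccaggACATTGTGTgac
Mt1, raised: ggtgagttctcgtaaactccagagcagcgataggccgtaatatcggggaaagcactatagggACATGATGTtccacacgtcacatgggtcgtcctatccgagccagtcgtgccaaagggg
Msantd3, lowered: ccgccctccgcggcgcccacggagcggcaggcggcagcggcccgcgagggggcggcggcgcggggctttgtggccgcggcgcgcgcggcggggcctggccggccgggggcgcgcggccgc
Gm46382, lowered: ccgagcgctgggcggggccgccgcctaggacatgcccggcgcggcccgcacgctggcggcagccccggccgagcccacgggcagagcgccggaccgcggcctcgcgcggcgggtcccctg
Acbd5, lowered: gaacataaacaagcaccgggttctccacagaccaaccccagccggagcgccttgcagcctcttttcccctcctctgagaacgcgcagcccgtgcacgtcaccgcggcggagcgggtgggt

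Each peak carries a normalized tag count, the number of tags in its 200 bp per 10000000 tags of the list. For every shared site the log2 ratio of dexamethasone to vehicle was taken and centred on the median of all 18330 ratios, which was -0.11 before centring (0.929-fold). A site was called raised or lowered when its centred ratio reached 2-fold, that is 1 or -1 on the log2 scale. Intervals of single ratios are exact 95% conditional binomial intervals, and those of shares are 95% Clopper-Pearson intervals. Both cover counting error only, since amplified reads are not independent molecules.

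GR occupancy of the shared sites differed between the lists in both directions. Of 18330 sites, 1774 were raised 2-fold or more (9.68%) and 926 were lowered (5.05%). The middle of the distribution ran from -0.59 to 0.56 between quartiles, and single sites ranged from -1.75 near Zfp704 to 3.83 near Stt3b. The balance of raised against lowered calls depended on where the zero was set and on which sites were kept. Raised sites made 65.7% of all calls with the median as zero, 46.9% without centring (1395 raised and 1581 lowered), and 8.61% when the strongest 20% of pairs set the zero (542 and 5754). That share was 93.4% with a pseudocount of 5 (853 and 60). Among sites with at least 10 in the higher list it was 87.4% (2523 and 364). Among peaks at least 8-fold over input and local background it was 98.4% (1259 and 20). Both filtered sets were centred on their own medians, -0.27 and -0.57 before centring, so the zero moved as well. Of alternatives chosen after seeing the data, paired centres within 50 bp gave 84.9% (2148 and 382), with a zero at their own median of -0.25. A zero from pairs without an NCOR1 peak gave 99.7% (5653 and 19), and one from pairs with such a peak gave 11.3% (642 and 5021). The number of lowered sites is therefore tied to these settings. A change of zero alone leaves the order of the sites along the ratio as it is.

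**Figure D1:**
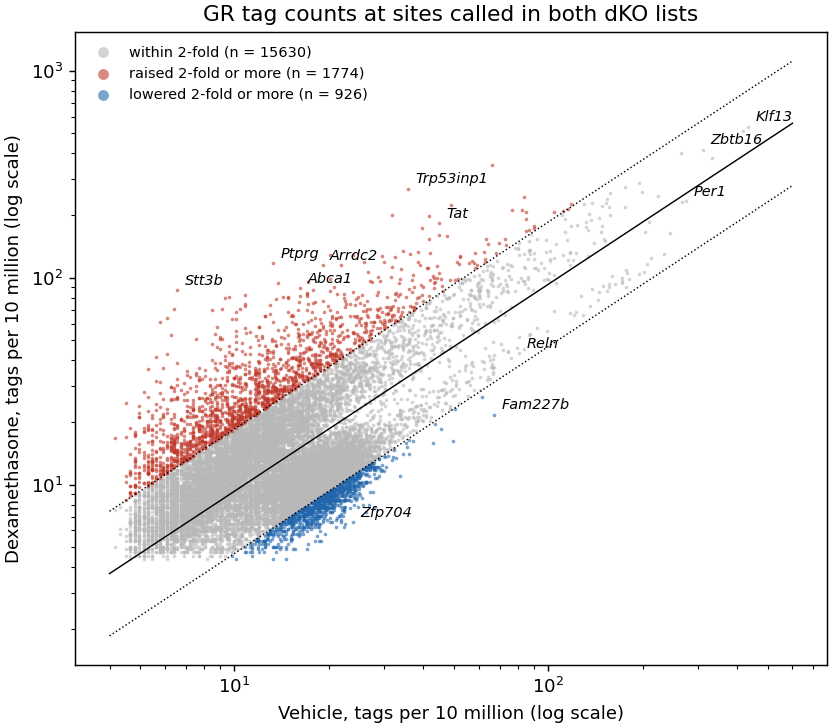
GR tag count per 10000000 tags in the dKO vehicle list (x axis) and dKO dexamethasone list (y axis), both log scales, at 18330 shared sites, with 1774 raised sites in red and 926 lowered sites in blue. The solid line is the median ratio and the dotted lines are 2-fold from it. Named sites carry their nearest gene.

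The ratios had a pair of modes rather than a single one at the median. In bins of 0.25, the histogram of centred ratios had a peak of 2733 sites between -0.75 and -0.5 and another of 2148 sites between 0.25 and 0.5. Between them, 1524 sites lay in the bin from -0.25 to 0. The modes differed in NCOR1 peaks of control liver, a readout that took no part in the ratio. The 9106 sites with an NCOR1 peak in either control list had a median of 0.45 (quartiles 0.15 and 0.78), and the 9224 sites without one had a median of -0.56 (-0.79 and -0.28). A similar split was present in control liver, so it was not particular to dKO liver. There the median centred ratio was 0.37 at 7809 of the sites with an NCOR1 peak and -0.55 at 8349 of those without.

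**Figure D2:**
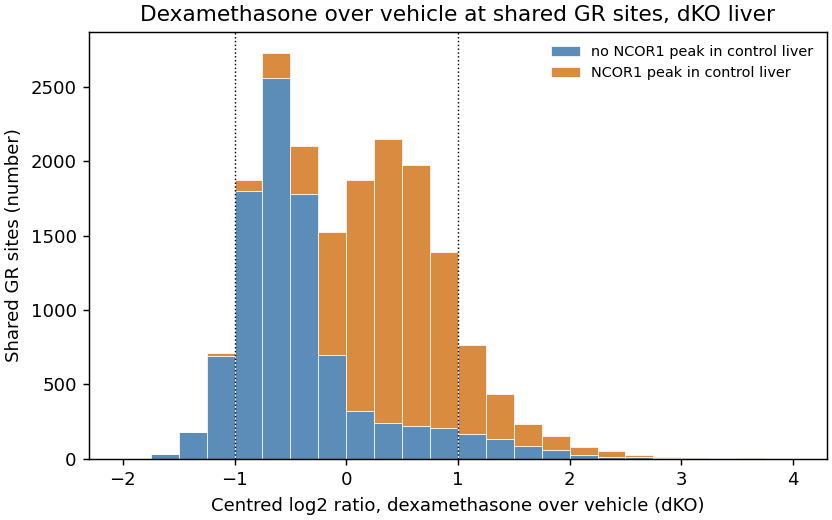
Number of shared GR sites (y axis) in bins of 0.25 of the centred log2 ratio of dexamethasone to vehicle in dKO liver (x axis), stacked by whether the site had an NCOR1 peak in either control list. Sites without an NCOR1 peak make up most of the mode between -0.75 and -0.5 and sites with one most of the mode between 0.25 and 0.5; dotted lines are 2-fold.

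Raised sites with an NCOR1 peak were 1271 of 9106 (14.0%), and lowered sites with one were 27 (0.297%). Without an NCOR1 peak the order was turned, with 503 raised (5.45%) and 899 lowered (9.75%) of 9224 sites. The separation was present in each of 5 equal classes of site strength, taken as the geometric mean of both tag counts. Medians with an NCOR1 peak ran from 0.23 in the weakest class to 0.68 in the strongest, and medians without one lay between -0.62 and -0.20. The strongest class as a whole held 23.3% raised and 1.64% lowered sites. The median of -0.20 belonged to the weakest class, and the other 4 lay between -0.62 and -0.53.

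The share of sites with an NCOR1 peak climbed with the ratio and then came down again among the most raised sites. It was 2.92% (1.93 to 4.21) of lowered sites, 5.34% between -1 and -0.5, 31.7% between -0.5 and 0, and 86.1% (85.0 to 87.2) between 0 and 0.5. It was 87.4% between 0.5 and 1, 75.1% between 1 and 1.5, and 66.3% (58.9 to 73.1) at 2 or more. The decline was larger in the NCOR1 vehicle list, which rests on 1 library of 17773927 tags, against 2 libraries and 36914937 tags under dexamethasone. At ratios of 2 or more 29.8% (23.3 to 37.1) of sites had an NCOR1 peak under vehicle and 64.1% (56.6 to 71.1) under dexamethasone, whereas between 0 and 0.5 the shares were 80.1% and 80.3%. Where NCOR1 was called in both control lists, its own log2 ratio of dexamethasone to vehicle was taken. It was centred on the median of all 26532 control NCOR1 pairs, which was -0.31 before centring. The centred NCOR1 ratio had a median of 0.83 at 50 sites with a GR ratio of 2 or more. Its median was 0.43 at all 828 raised sites and -0.01 over all 7403 shared sites with both values.

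Shares of sites close to gene ends were set side by side without a test. Within 1000 bp of either end of a protein-coding gene lay 6.09% (5.02 to 7.30) of raised sites, against 13.1% (12.6 to 13.6) of all shared sites. The share was 12.7% (10.7 to 15.1) of lowered sites, near that of all, and 18.5% of sites between -1 and -0.5. The share of sites inside a gene differed little, at 57.3% of lowered, 52.5% of raised and 54.4% of all shared sites. Background measures moved with the class as well. The median number of input tags was 1 at lowered and 2.5 at raised sites, and the median fold over the surrounding 10 kb was 9.9 and 13.8. Their part in the ratio was not tested.

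Chromosome X stood apart from the autosomes. Its 422 shared sites had a median of -0.49, whereas medians of the 19 autosomes ran from -0.12 to 0.13. On X, 22.5% of shared sites had an NCOR1 peak, against 49.7% of all shared sites. The median control ratio was also lower on X, at -0.52 against -0.19 over all shared sites with a control value. Background measures differed too. X sites had a median of 1 input tag and 21.05-fold over the surrounding 10 kb, against 2 and 9.32-fold for all. The part of these measures in the ratio was not tested.

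Promoter windows (250 bases before to 50 after each RefSeq start, 32851 in all) held the centres of 784 shared sites. The core ACANNNTGT, searched on both strands, was in 0 of 38 windows under lowered sites, which allows a share of up to 9.25%. It was in 2.20% of 227 windows between -1 and -0.5, 3.81% of 210 between -0.5 and 0, 11.2% of 179 between 0 and 0.5, and 26.0% of 96 between 0.5 and 1. Under raised sites it was in 12 of 34 (35.3%, 19.7 to 53.5). The core was in 8.93% of the windows under all 784 shared sites and in 6.85% of all promoter windows.

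The GC box GGGGCGGGG, a motif of many broadly active promoters, ran the other way. It was in 12 of 38 windows under lowered sites (31.6%, 17.5 to 48.7) and 0 of 34 under raised sites (up to 10.3%). Windows under all 784 shared sites had it at 17.9%, which lies inside the interval of the lowered sites, and all promoter windows at 11.4%. AGAACA, which may overlap the core, was in 39.6% of windows between 0.5 and 1 and in 17.6% under raised sites, beside 19.0% of all windows, so it did not follow the ratio to its top. These matches describe letters in the window and do not show that GR contacts them.

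**Figure D3:**
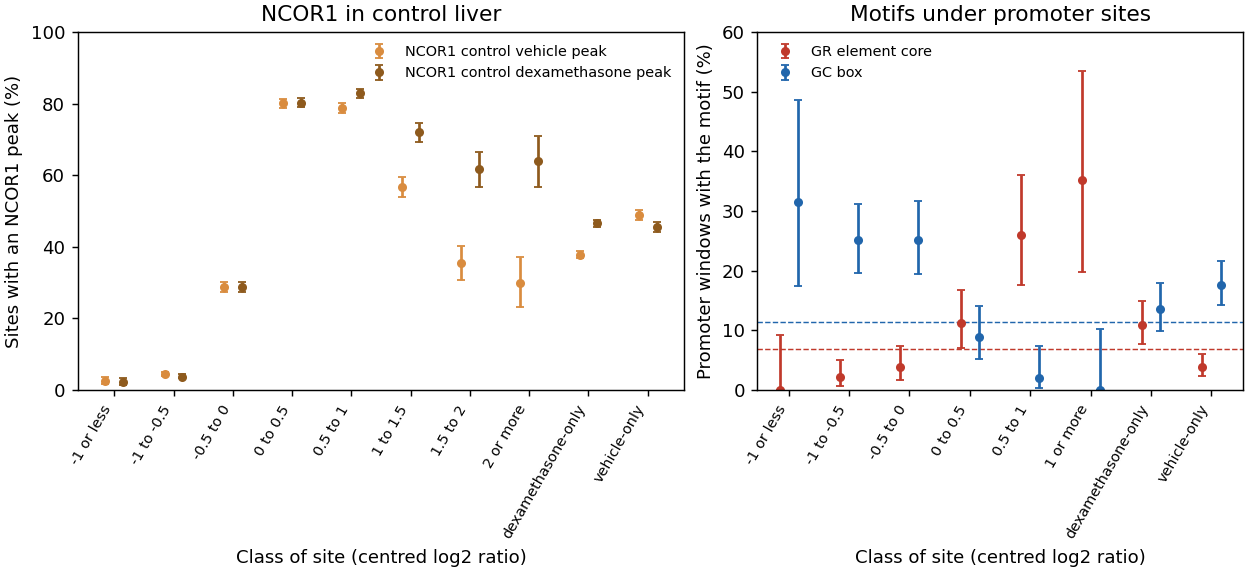
Left, share of GR sites (y axis, percent) with an NCOR1 peak in control vehicle and control dexamethasone liver, by class of centred log2 ratio and for condition-only sites. Right, share of promoter windows under such sites (percent) that hold the core ACANNNTGT or the GC box GGGGCGGGG, with dashed lines for all promoter windows; bars are 95% Clopper-Pearson intervals, and the core climbs from 0 of 38 to 12 of 34 windows while the GC box goes from 12 of 38 to 0 of 34.

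Among the promoter sites printed above, Mt1, which encodes a metal-binding metallothionein, had 58.3 tags per 10000000 under vehicle and 111.4 under dexamethasone (centred log2 ratio 1.04, 0.77 to 1.30). Map3k6, a kinase gene, had 51.1 and 119.2 (1.33, 1.06 to 1.61), and Phyhd1 had 21.5 and 64.4 (1.69, 1.28 to 2.11). All 3 ratios lay clear of 0 by their counting intervals. The CG-rich Msantd3 promoter had 48.5 and 24.0 (-0.91, -1.31 to -0.49), and that of Acbd5, which encodes a peroxisomal membrane protein, 39.8 and 21.8 (-0.76). Neither holds a core in the printed stretch.

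The most raised sites lay at genes of several kinds and were weak under vehicle. The top 12 were chosen among sites with at least 20 tags per 10000000 in the higher list. The first, chr9:115333162-115333362, lay 22.8 kb from Stt3b, a catalytic subunit of the enzyme that attaches N-glycans, and went from 6.58 under vehicle to 87.1 under dexamethasone (3.83, 3.21 to 4.60). Sites within Hipk2, a nuclear kinase gene (6.42 and 70.5, ratio 3.56), and Mctp2 (5.78 and 60.8, 3.50) followed. Zbtb20, a zinc finger repressor of the fetal gene Afp in liver, held a pair of them, inside the gene at 6.10 and 64.1 (3.50) and 39.1 kb away at a ratio of 3.15. Of the 12, the one with the highest tag counts lay 32.6 kb from Trp53inp1, a p53 target, with 35.8 under vehicle and 269.1 under dexamethasone (3.02, 2.74 to 3.32). The list also held sites of Ptprg, Hapln2, Rapgef2, Ptprj and Trio, and one 66.1 kb from Tbl1xr1 (9.15 and 70.4, 3.05), whose product is a subunit of the NCOR complex itself.

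In control liver 10 of these 12 sites were called under both conditions, with centred control ratios from 1.23 to 3.49. The Hipk2 and Rapgef2 sites were called in control liver under dexamethasone alone. NCOR1 was called under vehicle at 2 of the 12 (near Hapln2 and the distant Zbtb20 site) and under dexamethasone at 8.

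The most lowered sites had modest tag counts. Zfp704 led with 23.9 under vehicle and 6.58 under dexamethasone (chr3:9538033-9538233, -1.75, -2.52 to -1.03). Clrn1, a gene of hair cells and photoreceptors, followed 13.1 kb from its site (28.1 and 7.83, -1.74), and then Plxdc2 (26.2 and 7.36, -1.72). Genes with neural roles, Grid1 (21.8 and 6.58, -1.62) and Unc5a (22.2 and 7.05, -1.55), and the pigment gene Oca2 (24.7 and 7.83, -1.55) were also among the 12. The highest tag counts were at Fam227b (chr2:126147775-126147975), with 67.4 and 21.8 (-1.52, -1.92 to -1.12). Every 1 of the 926 lowered sites overlapped a GR peak of the control vehicle list, and 920 also one of the control dexamethasone list. Over all shared sites these shares were 91.3% and 94.6%, and in the strongest of the 5 strength classes 97.4% and 98.4%. Lowered sites had a median tag count of 19.3 under vehicle, against 14.1 over all shared sites.

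At the 2-fold limit, the nearest sites on either side had nearly equal ratios, by selection, but could differ in tag count. Egln1 with 11.9 under vehicle and 22.1 under dexamethasone lay just above the limit, and a site near Ptpn1 with 88.0 and 163.4 just below.

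Sites were also ranked by the geometric mean of both tag counts, which favours sites that are strong in both lists. None of the top 12 reached 2-fold in dKO liver. The Klf13 site (chr7:63896966-63897166), in the gene of a Krüppel-like factor, had 433.8 under vehicle and 536.4 under dexamethasone (0.41, 0.31 to 0.52). Zbtb16, a zinc finger gene known to respond to glucocorticoids, had 311.1 and 415.3 (0.52), and Per1, a core clock repressor, 275.0 and 233.8 (-0.13, -0.27 to 0.02). In control liver the same 3 sites had centred ratios of 0.03, -0.03 and -0.20. The farthest of the 12 from 0 was near Zfp36 (175.2 and 274.2, 0.75), which encodes an mRNA-destabilising protein.

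Known GR target genes, a list of 22 genes, carried 77 shared sites near 20 members. Of these, 25 were raised (32.5%) and 2 lowered, with a median of 0.64, beside 9.97% raised, 4.74% lowered and a median of 0.04 over all 16151 shared sites with a gene within 100 kb. The count of raised sites was 10 when only sites inside the gene body were taken. Of all 1774 raised shared sites, 931 lay inside a gene (52.5%). The raised share among the list's sites inside gene bodies is not given here. Raised sites lay near 14 of the genes. NCOR1 was called at 70.1% of the list's sites against 51.6% of all, and the list's median was 0.70 with an NCOR1 peak and 0.29 without, beside 0.44 and -0.56 for all.

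Fkbp5, which encodes a cochaperone that dampens GR, held sites on both sides of 0. Its strongest site, inside the gene at chr17:28420234-28420434, had 66.0 under vehicle and 350.9 under dexamethasone (2.52), and sites starting at 28442314 and 28463992 had ratios of 1.36 and 1.49. A pair of neighbouring sites starting at 28485415 and 28485948 was lower under dexamethasone, at 31.3 and 18.6 (-0.64) and at 23.9 and 13.6 (-0.71). At the strongest site control liver already had 335.3 under vehicle and reached 595.6, a centred ratio of 0.76.

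Tsc22d3, the gene of the anti-inflammatory protein GILZ on chromosome X, had 8 shared sites of which 4 were raised, the first from 19.1 to 58.3 (1.72). Errfi1, an inhibitor of EGF receptor signalling, likewise had 4 raised of 8. The site nearest Arrdc2, an arrestin-domain gene, was the most raised of the list, with 19.1 and 114.7 (2.69, 2.31 to 3.13). Mt2 had 38.9 and 115.0 at its nearer site (1.67). The lowest site of the list lay 64.7 kb from Bcl6, a transcriptional repressor gene, with 18.3 and 6.58 (-1.37, -2.16 to -0.62).

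Gluconeogenic genes had a lower median than the known targets, a difference that was not tested. Of 65 shared sites near 18 of 20 genes, 8 were raised (12.3%, beside 9.97% of all sites with a gene) and 0 lowered. Their median was 0.37. NCOR1 was called at 73.8% of them, against 51.6% of all. Their medians were 0.39 with an NCOR1 peak and -0.16 without, beside 0.44 and -0.56 for all. Pck1, the rate-limiting enzyme of the pathway, had its nearer site at 23.9 under vehicle and 43.7 under dexamethasone (0.98), just short of 2-fold, and a site 6.13 kb away at 16.1 and 13.9 (-0.11). G6pc, the enzyme that releases free glucose, had 15.6 and 23.0 next to the gene (0.67) and 30.3 and 29.1 at 5.3 kb (0.05). A stronger G6pc peak of 63.1 was called under dexamethasone 470 bp from a vehicle peak of 17.5, too close for either to be condition-only. Ppargc1a, the coactivator PGC-1α, had 8 shared sites that went both ways: 1 was raised, from 9.63 to 38.7 (2.11, 1.52 to 2.73), and 5 lay between -0.76 and -0.41. All 5 of those lacked an NCOR1 peak and the raised one had it under dexamethasone.

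Amino acid catabolism carried 13 raised (21.0%) and 0 lowered of 62 sites, with a median of 0.58. Over all sites with a gene 9.97% were raised and 4.74% lowered, with a median of 0.04. An NCOR1 peak lay at 69.4% of the list's sites, against 51.6% of all. The list's medians were 0.59 with an NCOR1 peak and 0.25 without, beside 0.44 and -0.56 for all. Tat, tyrosine aminotransferase and a textbook GR target, had 45.0 and 182.7 inside the gene (chr8:109987863-109988063, 2.13, 1.86 to 2.41), 26.2 and 69.3 at 1.8 kb (1.51), and a dexamethasone-only site of 40.7. The Tat site inside the gene had no NCOR1 peak in either control list. Cdo1, cysteine dioxygenase, had 14.3 and 80.7 (2.60) and a dexamethasone-only site of 89.3. Gpt2, a mitochondrial alanine aminotransferase, had 3 raised of 5 sites. At Arg1, which makes urea, the strongest site had 57.2 and 56.1 (0.08, -0.23 to 0.39).

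Insulin signalling and glycogen genes had 15 raised (16.5%, beside 9.97% of all sites with a gene) and 2 lowered of 91 sites, with a median of 0.50. An NCOR1 peak lay at 81.3% of these sites, against 51.6% of all. Their medians were 0.53 with an NCOR1 peak and -0.16 without, beside 0.44 and -0.56 for all. Pik3r1, the regulatory subunit of PI3-kinase, held 5 of the raised sites among 11, led by a ratio of 1.94 (1.43 to 2.53). Ppp1r3c, which brings a phosphatase to glycogen, had the highest ratio of the list at 10.1 and 68.5 (2.87, 2.35 to 3.48), and the insulin receptor gene Insr the lowest at 27.5 and 12.4 (-1.04).

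Anti-inflammatory and acute phase genes had 4 raised and 0 lowered of 38 sites, with a median of 0.58. Dusp1, a MAP kinase phosphatase, had 33.7 and 98.4 (1.65), together with a dexamethasone-only site of 36.4 and a vehicle-only site of 27.1 on the other side. Il6ra, the interleukin-6 receptor, had 21.2 and 83.5 (2.08). Clock genes had 5 raised and 1 lowered of 49 sites, with a median of 0.19. The raised shares of these lists, 10.5% and 10.2%, lay near the 9.97% of all sites with a gene. A pair of the raised ones was at Rora, a nuclear receptor of the clock, up to 16.2 and 43.1 (1.52), and the lowered one was 54.9 kb from Cry1 (17.5 and 7.36, -1.14).

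Lipid genes held few calls. Lipogenesis had 2 raised and 2 lowered of 49 sites, near Elovl5 (11.6 and 32.4, 1.59), Gpam, Acaca (24.4 and 9.40, -1.27) and Acacb. Fatty acid oxidation had 2 raised of 17, with Ppara, its nuclear receptor, at 20.7 and 55.9 (1.54). Bile acid and cholesterol genes had 4 raised of 39, led by a site 38.1 kb from Abca1, the cholesterol exporter, at 16.2 and 88.7 (2.56, 2.13 to 3.04). The raised shares of these 3 lists, 4.08%, 11.8% and 10.3%, lay near or below the 9.97% of all sites with a gene.

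Genes of corepressors and nuclear receptors had 15 raised (19.5%, beside 9.97% of all sites with a gene) and 1 lowered of 77 sites, with a median of 0.51. An NCOR1 peak lay at 70.1% of these sites, against 51.6% of all. Their medians were 0.58 with an NCOR1 peak and -0.27 without, beside 0.44 and -0.56 for all. Thrb, a thyroid hormone receptor, had 30.7 and 80.9 (interval of the ratio 1.15 to 1.85), and the lowered site was inside Hdac3 (21.0 and 8.78, -1.15). Ncor1 itself had 1 shared site at 20.7 and 17.6 (-0.13). None of the 5 shared sites of Nr3c1, the GR gene, reached 2-fold, with ratios from -0.48 to 0.86.

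Hepatocyte identity genes had 10 raised (18.5%) and 0 lowered of 54 sites (median 0.59), with Cyp3a11, a drug-metabolising enzyme, at 15.4 and 65.5 (2.20). Over all sites with a gene 9.97% were raised, with a median of 0.04. An NCOR1 peak lay at 83.3% of the hepatocyte sites, against 51.6% of all. The hepatocyte medians were 0.60 with an NCOR1 peak and 0.07 without, beside 0.44 and -0.56 for all. Leukocyte genes had 0 of 4 sites past 2-fold in either direction. Endothelial, stellate and bile duct genes had 4 raised (14.3%) and 1 lowered of 28 (median 0.47). An NCOR1 peak lay at 53.6% of these sites, with medians of 0.67 with a peak and -0.40 without. Neuronal genes, which liver does not depend on, were the only list with more lowered than raised sites, 7 and 5 of 39, and had a median of -0.45. Those 7 were 17.9% of their sites, beside 4.74% of all sites with a gene. NCOR1 was called at 23.1% of their sites, and their medians were 0.57 with an NCOR1 peak and -0.60 without. No list was tested against the others.

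**Figure D4:**
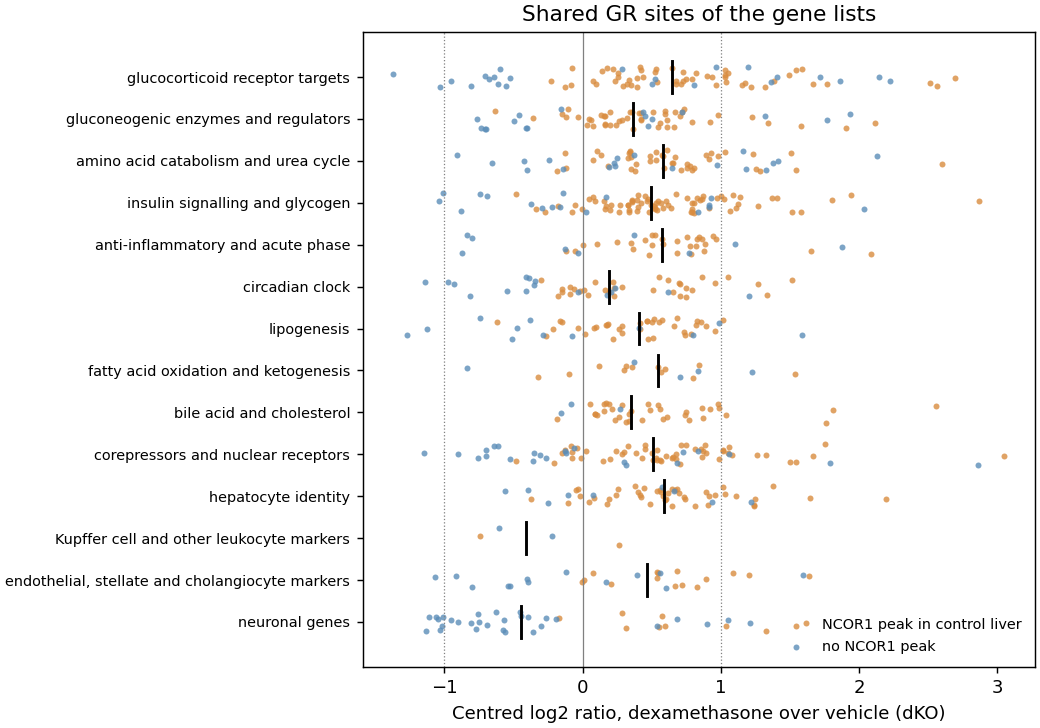
Centred log2 ratio of dexamethasone to vehicle in dKO liver (x axis) at each shared GR site of the 14 gene lists (rows), with points coloured by an NCOR1 peak in either control list and jittered vertically. Black bars are medians, from -0.45 in neuronal genes to 0.64 in GR targets, and dotted lines are 2-fold.

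Shared sites were assigned to 8373 genes, of which 1308 had a raised and 724 a lowered site. Both kinds occurred at 84 genes, among them Zbtb20 (4 raised and 1 lowered of 13 sites), the guanine exchange factor gene Trio (2 and 2 of 6) and Etv6 (1 and 1 of 7). Only the 3675 genes with 2 or more shared sites could hold both kinds. Whether 84 departs from the number that the shares of raised and lowered sites alone would give was not tested. Most raised sites were counted at B3galt1, Nfia, Pik3r1 and Susd6, with 5 each. Bcl2l1, an anti-apoptotic gene, had 4 of 5 sites raised, for example from 38.5 to 132.3 (1.89). Most lowered sites were at Cpxm2, with all 4 of its shared sites, and at Ptprd, with 4 of 7. Long genes collect more sites, and no correction for length was made.

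Dexamethasone-only sites were 9520 of 28378 peaks (33.5%, 33.0 to 34.1) and vehicle-only sites 4566 of 23362 (19.5%, 19.0 to 20.1). Each shared site uses 1 peak of either list, so the longer dexamethasone list leaves more unpaired peaks. Most condition-only sites were weak. The median tag count was 8.46 at dexamethasone-only and 7.30 at vehicle-only sites, where 15 tags, the threshold of the peak calls, equal 4.70 and 4.82 in these lists. At 20 or more there were 583 dexamethasone-only and 122 vehicle-only sites. Absence from a list means only that no peak passed the caller's thresholds.

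The strongest dexamethasone-only site lay in 1110059E24Rik, with 143.7 (chr19:21598906-21599106). Zbtb16 had 131.6 at a site 917 bp from its nearest vehicle peak, and a site near Armc12, close to Fkbp5 on chromosome 17, had 118.5. Anapc16, which encodes a subunit of the anaphase-promoting complex, had 112.2, and Fkbp5 had 83.5, which was 1 of its 5 dexamethasone-only sites. Listed genes also had such sites, with 74.9 near Tef, which encodes a PAR bZIP factor, and 59.9 near Nfkbia, which encodes an NF-κB inhibitor. All 12 strongest sites were called in control liver under dexamethasone, with tag counts from 46.3 near St3gal1 to 277.6 in 1110059E24Rik, and 4 of the 12 were called there under vehicle too.

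Among vehicle-only sites, Acacb, an acetyl-CoA carboxylase of lipid metabolism, had 47.5 (chr5:114172994-114173194), and a site in Cebpb, a liver transcription factor gene, 44.3 (chr2:167689360-167689560). Cebpb also had 6 dexamethasone-only sites and a shared site 87.1 kb away at 37.2 and 103.4 (1.58). Near Ptpn1, a phosphatase of the insulin receptor, a vehicle-only site of 35.6 and a dexamethasone-only site of 65.2 lay within the same cluster. Within 1000 bp of a gene end lay 24.9% (23.7 to 26.2) of vehicle-only and 9.10% (8.53 to 9.69) of dexamethasone-only sites. In promoter windows the core was under 10.9% of 302 dexamethasone-only and 3.85% of 441 vehicle-only sites, beside 6.85% of all windows.

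Many condition-only sites recurred in the control lists, which rest on other animals. Of dexamethasone-only sites 74.0% were in the control dexamethasone list and 34.2% in the control vehicle list, and 22.4% were in neither. Of vehicle-only sites 54.8% were in the control vehicle list, 48.1% in the control dexamethasone list, and 32.1% in neither. NCOR1 was called at 52.6% and 55.4% of them.

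Most shared sites had a ratio of the same sign in control liver. Among 16158 sites called in all 4 GR lists, the centred ratios of dKO and control liver had a Pearson correlation of 0.80 and a Spearman correlation of 0.77 across sites, which share the input library and the sequence of each site and are not replicates. Over all of them 14110 had the same sign, and 1541 were raised and 796 lowered 2-fold in control liver. Of 1506 raised sites with a control value, 1475 had a control ratio of the same sign and 885 (58.8%) were past 2-fold there too. Their median was 1.30 in dKO and 1.15 in control liver. Of 920 lowered sites 900 had the same sign and 103 (11.2%) were past 2-fold, with medians of -1.12 and -0.59. The members were chosen by their dKO value, which by itself places that median farther from 0. No site past 2-fold in dKO liver was past 2-fold in the opposite direction in control liver.

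**Figure D5:**
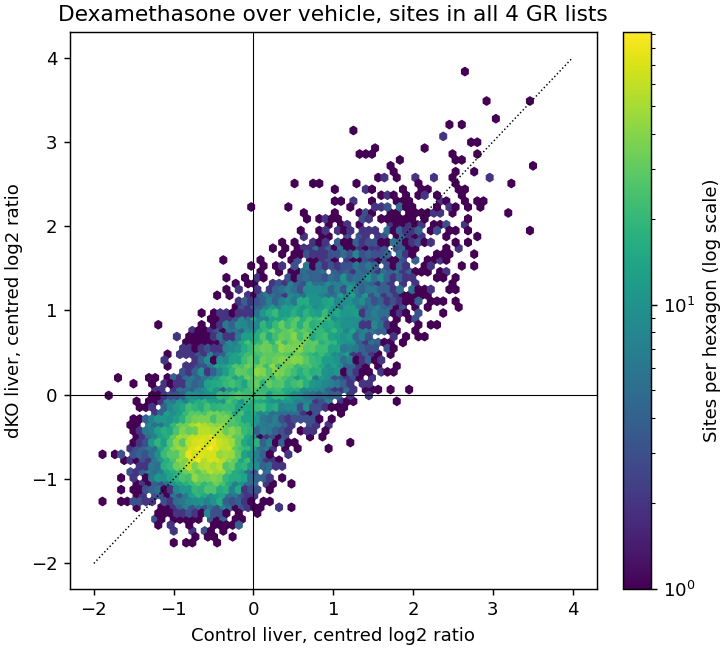
Centred log2 ratio of dexamethasone to vehicle in control liver (x axis) and dKO liver (y axis) at the 16158 sites called in all 4 GR lists, drawn as hexagons coloured by the number of sites on a log scale; the dotted line is equality. Sites form 2 clouds along the line, one with both ratios negative and one with both positive.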

How the data were processed

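Peak lists were made by the authors from pooled libraries, on mm10. The submitters' processing notes name HOMER 4.11, bedtools 2.29.2, BWA 0.7.17 and Trim Galore 0.6.4, without roles. Peaks are 200 bp wide, at least 4-fold over input and over the surrounding 10 kb, each with a p-value of at most 0.0001 and at least 15 tags, per the file headers. The normalized tag count is a signal per 10000000 tags, deposited by the authors, and so is the findPeaks score. The fold over input and over the local region are ratios deposited by the authors.

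From these lists peaks were paired, and ratios, shares and intervals were computed in Python 3.11.15 with pandas 2.3.3, numpy 2.4.6 and scipy 1.17.1. Pairs were checked against bedtools 2.31.1 (0 differences) and tested on simulated data. Depth per list, 31144581 and 31908182 tags, sets the counting intervals. A site was assigned to the nearest of 21900 protein-coding gene bodies within 100 kb, since the gene table gives no strand. Named sites are the 12 most raised, most lowered and strongest condition-only ones, the strongest, highest and lowest of each gene list, and genes with the most sites. The strongest shared sites, Pck1, G6pc, further sites of listed genes and chromosomes were named after their values were seen. The members and the 14 gene lists were chosen with earlier results of these data known. Alternatives were other overlaps, zeros, measures, filters and margins. Input and NCOR1 libraries were size selected and GR libraries were not, per the labels. One item of the genotype is not reported here.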

Additional observations from a re-analysis of the deposited data

Results flagged for a closer look

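At 31 of 1506 raised sites the control ratio had the opposite sign. They stand out because the GR tag count relative to the median was higher under dexamethasone in dKO liver and lower in control liver. The farthest were in Nol10 (dKO 13.8 under vehicle and 29.1 under dexamethasone, ratio 1.18; control 30.2 and 22.6, -0.49) and Ptprn2 (20.9 and 38.9, 1.00; control 70.4 and 55.6, -0.41). A site near Mat1a, which encodes the enzyme that makes S-adenosylmethionine in liver, had 13.8 and 38.5 in dKO (1.59) and a control ratio of -0.38.

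At 20 of 920 lowered sites the control ratio was above 0. The farthest were near Eya2 (dKO 16.1 and 5.95, -1.33; control 7.83 and 11.5, 0.49) and Matn1 (18.9 and 8.46, -1.05; control 12.9 and 18.5, 0.45). No control ratio at either set of sites was past 2-fold. The difference between genotypes was not tested, because replicates are pooled in each list.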

How the results depend on the processing

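No paired analysis was possible because the replicates of each group are pooled in its list, and no replicate could be left out for the same reason. Of 224 values of the 24 most raised and most lowered sites under the alternatives, 204 lay within the site's own counting interval; their direction was fixed by the choice of extremes and is no sign of stability. Counts depended on the choices. Raised sites, 1774 with the median as zero, were 542 with the strongest 20% of pairs as zero and 853 with a pseudocount of 5. Lowered sites, 926 at first, were 1581 without centring, 5754 with the strongest 20% as zero, 594 by findPeaks score, 60 with a pseudocount of 5, 364 among pairs with at least 10 in the higher list and 20 among peaks at least 8-fold over input and local. With zeros chosen after seeing the data, pairs without an NCOR1 peak gave 5653 raised and 19 lowered sites and pairs with one gave 642 and 5021. Pairs with centres within 50 bp, also chosen afterwards, left 382 lowered sites. Peaks at least 8-fold over input and local left 1285 dexamethasone-only and 443 vehicle-only sites. Raised sites of GR targets were 10 inside gene bodies. With an overlap of 100 bp NCOR1 was called at 67.9% of raised sites and 46.1% of those within 2-fold, against 71.6% and 50.0%. Numbers of condition-only sites stayed within 1.5-fold for the other margins. With lists of equal length the unpaired counts are equal by construction, so that alternative is uninformative. The centring moves the zero and not the order of sites. Filtered sets were centred on their own medians, so their counts changed with the zero and with the sites kept. Those medians were -0.27 for the tag count filter, -0.57 for the 8-fold filter and -0.25 for the 50 bp filter, against -0.11. The part of each, and the cause of the other shifts, was not tested. Depth limits the ratios of weak sites, whose counting intervals are wide.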

Other observations

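Among the 27 lowered sites with an NCOR1 peak, a few had high NCOR1 tag counts in dKO vehicle liver. Fam227b had 196.1 in the NCOR1 dKO vehicle list, the highest value of that list, beside 135.3 in control vehicle and 36.6 in control dexamethasone liver. The same order was seen within Ybx3 (150.8, 95.6 and 29.4), 29.0 kb from Insc (149.4 in the dKO and 50.6 in the control vehicle list, and lower under dexamethasone) and at Plxdc2 (74.7, 55.7 and 14.4). GR at these 4 sites was lower under dexamethasone in both genotypes, for example at Insc from 36.1 to 14.1 in dKO and from 67.2 to 18.5 in control liver. The vehicle-only sites of Acacb (NCOR1 144.6, 88.6 and 28.7) and Prxl2b (95.3, 52.6 and 15.7) had the same order. These sites were picked after their values were seen, and each vehicle NCOR1 list is a single library.

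Close to the 500 bp margin, dexamethasone peaks near Cpn2 and Tax1bp1 lay 501 bp from a vehicle peak and were counted as condition-only, whereas one in Plcb1 at 500 bp was not. Within the margin, 69 dexamethasone and 28 vehicle peaks had tag counts of 20 or more.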
